A study of Homo sapiens with 6 samples.

Results

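The genes described here are PCK1, G6PC1, FBP1, PKLR, GYS2, KHK and SLC2A2, which carry out glucose and fructose metabolism in hepatocytes, together with ALDOA, the aldolase isozyme of muscle and most other tissues, kept for contrast. They were chosen by name, with earlier results of these data known, and located in GENCODE release 44, and all 8 were found among 20033 protein-coding genes. The question asked of each was where chromatin bound by the TTD, the tandem Tudor domain of the human protein UHRF1, lies relative to its transcription start site (TSS), its body and its surroundings.

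UHRF1 brings DNMT1 to newly replicated DNA, so that methylation patterns are copied, and its TTD is a reader of methylated H3K9. The series holds 6 samples, with 2 biological replicates each of TTD chromatin pulldown (CIDOP), H3K9me2 ChIP and input, all from untreated HepG2 cells, a human hepatoblastoma line that the labels place in liver. The bait was a GST fusion of UHRF1 residues 126 to 280, so it is an isolated domain added to native nucleosomes from lysed cells and not the cell's own UHRF1. The values used here come from 1 list of 31569 broad TTD peaks called on the mean of both TTD replicates. The list gives a start, an end and a width for each peak, with no score and no value per replicate. Each cover below is therefore a single value whose replicate error cannot be estimated, no test was made, and the list does not give the depth of each library. The H3K9me2 and input samples were not analysed here. A peak list holds no expression, so the cell type could not be checked against its markers. HepG2 carries gained chromosomes, among them 2, 16, 17 and 20, and copy number was not measured here.

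Hepatocytes make glucose from lactate, amino acids and glycerol in fasting and release it to the blood, and they take up glucose, store it as glycogen and break it down by glycolysis after a meal. Several steps use isozymes that are largely confined to liver, kidney and a few other tissues, and hormones set the transcription of many of these genes. Dietary fructose enters the same pathways through ketohexokinase and aldolase.

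All 7 hepatic genes had a TTD peak in the gene body and none was detected in ALDOA. Among all protein-coding genes 34.2% had a body peak, and among the 11047 genes within the length range of the hepatic genes (7042 to 68741 bp) the share was 27.1%. A peak lay within 2.5 kb of the canonical TSS of 4 of the 7, namely PCK1, G6PC1, PKLR and SLC2A2, beside 16.9% of all genes. The TSS itself lay inside a peak in 3 of the 7 (PCK1, G6PC1 and PKLR), beside 2.19% of all genes. A peak within 100 kb was present for 7 of 7, and this was also the case for 77.9% of all genes. The count in the body depends on how a peak is assigned, since peaks at PCK1, G6PC1 and PKLR lie mostly upstream of the gene. With the peak midpoint required inside the body, 4 of the 7 had one, beside 32.5% of all genes. With the midpoint required inside the TSS window, 2 of the 7 had one, beside 12.2%.

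**Figure D1:**
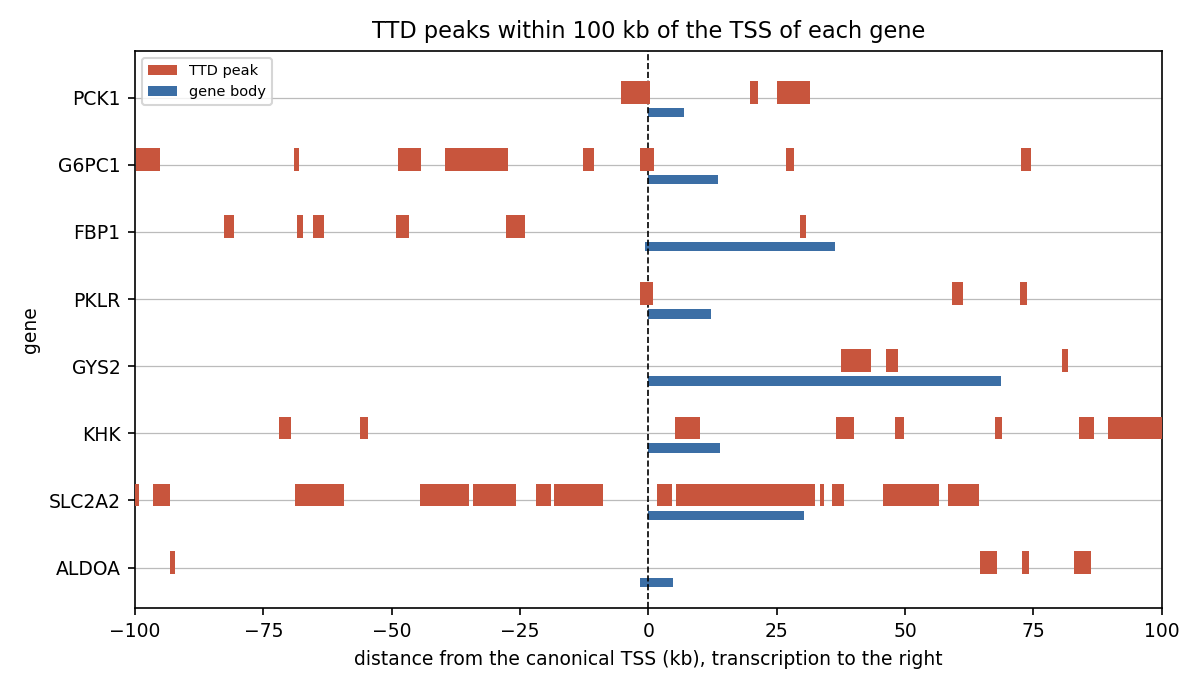
TTD peaks (red) and gene bodies (blue) by distance from the canonical TSS in kb, with 1 row for each gene and transcription to the right. Peaks cover the start of PCK1, G6PC1 and PKLR, SLC2A2 lies among 13 peaks, and the nearest peak to ALDOA starts 64601 bp downstream of its TSS.

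The promoter windows bear on these positions, because at G6PC1 and PKLR the whole window lay in a peak while at SLC2A2 and ALDOA no base of it did. The sequences are those of RefSeq on GRCh38.p14, each 5′ to 3′ from 250 bases before to 50 bases after a start, and each was identical to hg38. They are shown for G6PC1 (chr17:42900549-42900848, plus strand), for both RefSeq starts of PKLR (chr1:155301389-155301688 and chr1:155300903-155301202, minus strand), for SLC2A2 (chr3:171026671-171026970, minus strand) and for the canonical start of ALDOA (chr16:30065510-30065809, plus strand). Capitals mark matches on either strand to the motifs searched.
G6PC1: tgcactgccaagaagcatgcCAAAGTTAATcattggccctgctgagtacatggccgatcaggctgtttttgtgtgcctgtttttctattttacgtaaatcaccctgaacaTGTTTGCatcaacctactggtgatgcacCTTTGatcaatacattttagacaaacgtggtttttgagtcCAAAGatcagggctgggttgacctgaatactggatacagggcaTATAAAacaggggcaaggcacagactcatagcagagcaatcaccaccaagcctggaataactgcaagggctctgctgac
PKLR upstream start: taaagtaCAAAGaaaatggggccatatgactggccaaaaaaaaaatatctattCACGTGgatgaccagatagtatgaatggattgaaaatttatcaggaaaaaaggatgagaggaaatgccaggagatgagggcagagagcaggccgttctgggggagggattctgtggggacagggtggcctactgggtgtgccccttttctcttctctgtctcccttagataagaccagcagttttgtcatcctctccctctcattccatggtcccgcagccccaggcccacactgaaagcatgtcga
PKLR downstream start: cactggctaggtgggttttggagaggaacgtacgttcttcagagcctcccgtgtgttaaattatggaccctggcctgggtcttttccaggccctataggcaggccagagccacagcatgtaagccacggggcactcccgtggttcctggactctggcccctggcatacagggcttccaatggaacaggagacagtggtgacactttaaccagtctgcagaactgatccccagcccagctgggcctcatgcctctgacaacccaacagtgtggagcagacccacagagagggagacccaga
SLC2A2: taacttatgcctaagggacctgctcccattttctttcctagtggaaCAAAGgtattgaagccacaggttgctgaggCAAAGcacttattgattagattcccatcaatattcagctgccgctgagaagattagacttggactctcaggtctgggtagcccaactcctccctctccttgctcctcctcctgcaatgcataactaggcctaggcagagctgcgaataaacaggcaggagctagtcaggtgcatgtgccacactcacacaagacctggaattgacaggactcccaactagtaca
ALDOA: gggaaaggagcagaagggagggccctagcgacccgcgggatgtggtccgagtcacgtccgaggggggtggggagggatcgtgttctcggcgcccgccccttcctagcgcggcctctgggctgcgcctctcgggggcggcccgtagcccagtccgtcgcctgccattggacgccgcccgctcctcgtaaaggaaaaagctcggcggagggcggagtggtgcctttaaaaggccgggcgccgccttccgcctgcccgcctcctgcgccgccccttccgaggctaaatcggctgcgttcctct

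The motifs searched were GTTAAT for HNF1 (held by 6.88% of 35116 promoter windows), CAAAG for the HNF4 core (47.5%) and CAAAGTCCA for a full HNF4 site (0.384%). They also included TGTTTAC (3.42%) and TGTTTGC (3.89%) for FOXA, and CACGTG for the E box (7.26%). The last were TGACG for the core of a cyclic AMP response element (24.6%), TTGCNNAA for C/EBP (10.5%) and TATAAA for the TATA box (11.5%). The G6PC1 window held CAAAG at 3 positions, GTTAAT overlapping the first of these by 1 base, TGTTTGC, and TATAAA at 29 bases before the start. The upstream PKLR window held CAAAG and CACGTG, and the downstream one held no match. The SLC2A2 window held CAAAG at 2 positions, and the canonical ALDOA window held none of the motifs. ALDOA has 2 further RefSeq windows upstream, also with no base in a peak, of which one held CAAAG and CACGTG, as the upstream PKLR window did, and the other the reverse complement of TGACG. The windows also differed in CpG sites, with 3 in G6PC1, 4 and 5 in PKLR, 2 in SLC2A2, 35 in the canonical ALDOA window and 10 and 6 in its upstream ones, beside a median of 14 over all windows. A match describes these letters and is not a measured binding site. FBP1 has a window of its own with 32 CpG sites, no motif match and no base in a peak. PCK1, GYS2 and KHK were not matched to a RefSeq window.

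Of the 3 gluconeogenic genes PCK1, G6PC1 and FBP1, PCK1, the cytosolic phosphoenolpyruvate carboxykinase that commits oxaloacetate to glucose synthesis, had the highest cover around its TSS. PCK1 lies on chromosome 20 from 57561080 to 57568121 on the plus strand. A peak of 5640 bp ran from 5419 bp upstream of its TSS to 220 bp past it and ended in intron 1, so that it held the first exon and 94 bp of 5′ UTR. Of the 5 kb around the TSS 54.42% lay in this peak. As much was found at 1.92% of all protein-coding genes and at 3.85% of those on chromosome 20. The cover was one-sided, with 100% of the upstream flank (1 to 2.5 kb from the TSS), 94.2% of the central 500 bp and 0% of the downstream flank. Only 3.564% of the PCK1 body was covered, and 4.45% of the peak lay inside the gene. Of 6 annotated PCK1 transcript starts 3 lay in the peak. The remaining 2 peaks within 100 kb began 19851 and 25091 bp downstream and brought the 100 kb cover to 6.750%. As much was found at 17.7% of all genes but at 46.0% of the genes of chromosome 20, where 7.04% of all bases lay in peaks.

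G6PC1, the catalytic subunit of glucose 6-phosphatase that releases free glucose as the last step of gluconeogenesis and glycogen breakdown, had a peak centred close to its TSS. The gene lies on chromosome 17 from 42900797 to 42914438 on the plus strand. Its peak of 2580 bp reached from 1568 bp upstream to 1011 bp downstream of the TSS and held exon 1 with 230 bp of coding sequence. The TSS window was covered by 51.60% (2.17% of genes had as much), and all 4 annotated starts lay in the peak. The central 500 bp were covered by 100%, against 37.87% of the upstream and 0.7333% of the downstream flank. G6PC1 also had 8 peaks within 100 kb with a cover of 15.44%, a level that 4.64% of genes reached. Most of this lay upstream, at 26.34% of the upstream and 4.531% of the downstream 100 kb, and the widest peak there measured 12370 bp and lay between positions -39638 and -27269 from the TSS.

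FBP1, fructose 1,6-bisphosphatase, which catalyses the step opposed to phosphofructokinase, differed from both in having no peak near its start. FBP1 lies on chromosome 9 from 94603133 to 94640249 on the minus strand. Its TSS window had 0% cover, none of its 5 annotated starts lay in a peak, and the nearest peak ended 24113 bp upstream. A single body peak of 1270 bp, which began 29458 bp downstream of the TSS and held 140 bp of exon 4 and part of intron 4, gave a body cover of 3.422%. Upstream FBP1 had 5 peaks and 11.35% cover over 100 kb, and downstream 1.27%. Of the 7 hepatic genes FBP1 had the lowest body cover, which 22.0% of all genes reached.

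PKLR encodes the pyruvate kinase of liver and red cells, and is read from an upstream start in red cells and a downstream start in hepatocytes. The gene lies on chromosome 1 from 155289293 to 155301438 on the minus strand. A peak of 2420 bp, from 1612 bp upstream to 807 bp downstream of the canonical TSS, held all 3 annotated starts, the farthest of them 482 bp downstream. The TSS window was covered by 48.40% (2.53% of genes had as much), with 100% in the centre, 40.8% in the upstream flank and 0% in the downstream flank. Beyond this peak the surroundings of PKLR held little, with 2 more peaks and a 100 kb cover of 2.890%, the lowest of the 7 and a level that 40.4% of genes reached.

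**Figure D2:**
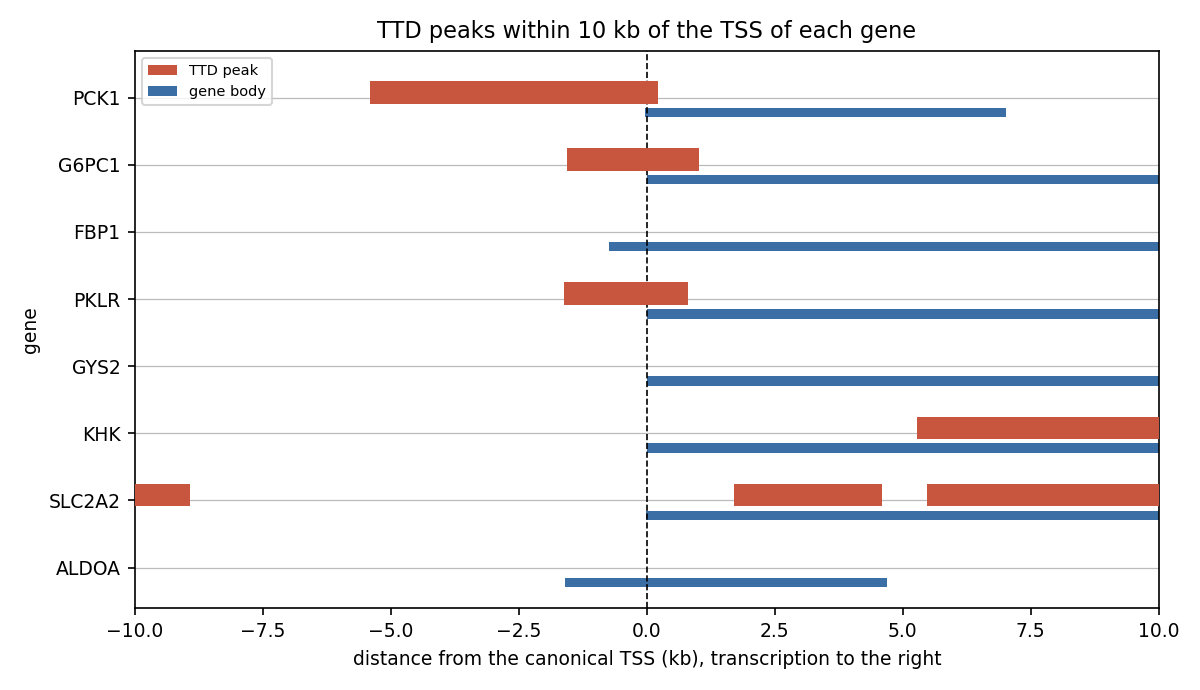
TTD peaks (red) and gene bodies (blue) within 10 kb of the canonical TSS, by distance in kb, with 1 row for each gene. The dashed line marks the TSS, which lies inside a peak in PCK1, G6PC1 and PKLR and 1710 bp before a peak in SLC2A2.

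GYS2, the liver glycogen synthase, had its peaks deep in the body. It lies on chromosome 12 from 21536107 to 21604847 on the minus strand and has 1 annotated start. The TSS window had 0% cover and the upstream 100 kb also had 0%. A peak of 5870 bp began 37587 bp downstream of the TSS and held exons 6 and 7, and a second one of 2200 bp began 46367 bp downstream and held exon 11. Together they covered 11.74% of the body, a level that 8.61% of genes reached.

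KHK, ketohexokinase, phosphorylates fructose in its first step in the liver. KHK lies on chromosome 2 from 27086772 to 27100762 on the plus strand. Its TSS window had 0% cover, but a peak of 4760 bp from 5269 to 10028 bp downstream of the TSS held exons 2 to 4 and gave a body cover of 34.02%, which 1.77% of all genes and 3.05% of the genes of chromosome 2 reached. The cover within 100 kb was 14.39%, at 4.05% upstream and 24.73% downstream, where a peak of 13000 bp began 89439 bp from the TSS. Of all genes 5.38% had as much cover within 100 kb, against 15.3% of the genes on chromosome 2.

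SLC2A2 encodes GLUT2, the transporter through which glucose enters and leaves hepatocytes, and had the highest cover of the 8 genes over its body and its surroundings. The gene lies on chromosome 3 from 170996347 to 171026743 on the minus strand. A peak of 2880 bp in intron 1 and a peak of 26890 bp over exons 2 to 11 covered 91.40% of its body, which 0.195% of protein-coding genes reached. The wider one ranked 25 among the 31569 peaks by width, ran past the end of the gene and held 1557 bp of coding sequence. This rank is among the peaks left after the authors' manual curation, which also took out large peaks judged false. With 13 peaks the cover within 100 kb was 46.91%, reached by 0.14% of all genes and by 0.185% of those on chromosome 3, and was similar on both sides at 43.98% upstream and 49.84% downstream. The start itself was free of peaks. It lay in a gap of 10630 bp, with the next peak 1710 bp downstream and the last one 8921 bp upstream, and this gap was the third in size of the 12 gaps between the peaks around SLC2A2, the others being 660 to 24340 bp. The TSS window had 15.82% cover, all of it downstream, which 13.0% of genes reached. Of the 4 distinct annotated starts 2 lay inside the widest peak, at up to 19250 bp downstream.

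ALDOA, on chromosome 16 from 30064164 to 30070457 on the plus strand, had 0% cover of its body and of its TSS window. None of its 18 distinct annotated starts lay in a peak. Its 100 kb cover of 4.580% from 4 peaks was reached by 27.4% of all genes and by 36.6% of those on chromosome 16. It lay within the range of the hepatic genes, above PKLR and just below GYS2 at 4.595%.

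**Figure D3:**
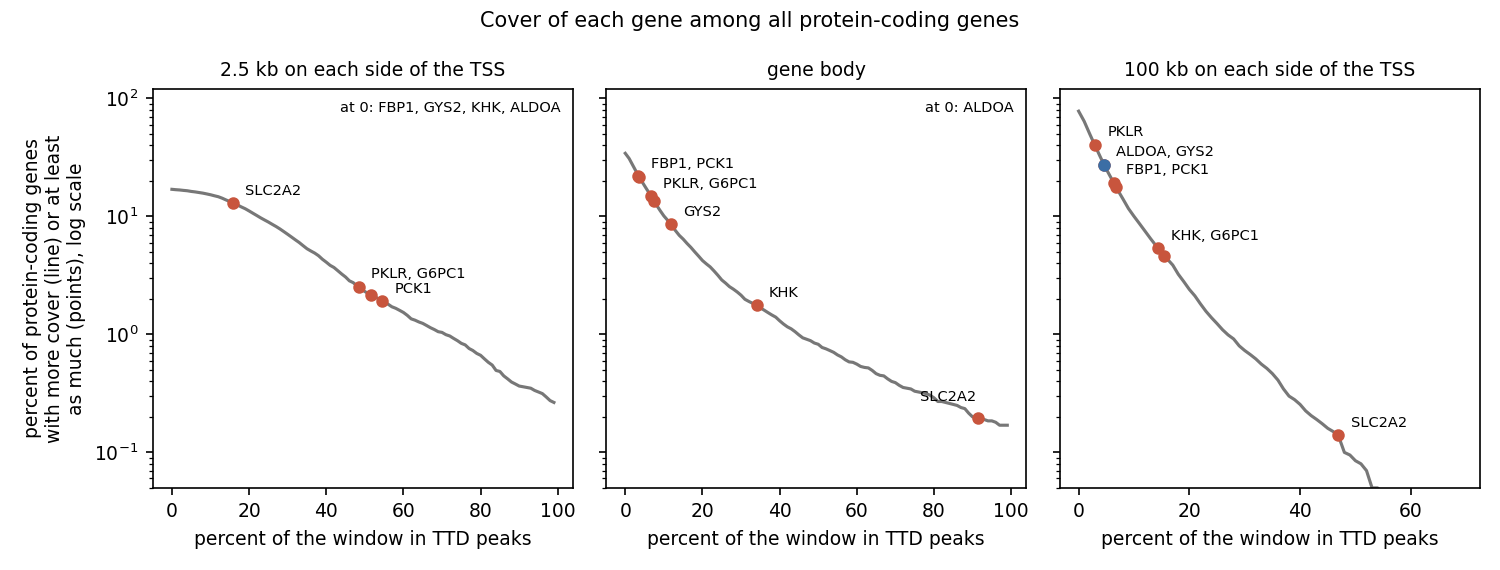
Cover of each gene by TTD peaks (x axis, percent of the window) against the percent of protein-coding genes with more cover (grey line) or at least as much (points, log scale), for the TSS window, the body and 100 kb on each side. Red points are hepatic genes and the blue point is ALDOA, drawn over GYS2 in the 100 kb panel. SLC2A2 lies at 91.40% of the body and 46.91% of the 100 kb windows, while PCK1, G6PC1 and PKLR lead around the TSS at 48.40 to 54.42%.

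Over the 7 hepatic genes the median cover was 15.82% in the TSS window (0 to 54.42%), 7.433% in the body (3.422 to 91.40%) and 6.750% within 100 kb (2.890 to 46.91%). The medians of all protein-coding genes were 0%, 0% and 2.000%. With 7 values the TSS median moved to 7.910% without PCK1, G6PC1 or PKLR, to 24.20% without SLC2A2, and to 32.11% without FBP1, GYS2 or KHK. The 100 kb median moved to 10.57% without FBP1, GYS2 or PKLR and to 10.35% without PCK1. The order of the genes changed with the window. SLC2A2 came first in the body and within 100 kb but behind PCK1, G6PC1 and PKLR at the TSS, and PKLR was last within 100 kb. No 100 kb window of 1 gene overlapped that of another. The 9 peaks in the bodies had a median width of 2880 bp, beside 2250 bp for all peaks, and a median GC content of 44.9%, beside 43.2%.

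The CpG content of the start was set beside the cover. In the 1 kb around the TSS the ratio of observed to expected CpG was 0.135 in SLC2A2, 0.150 in GYS2, 0.168 in PKLR, 0.217 in G6PC1 and 0.336 in PCK1, and all 5 fall in the lowest quartile of protein-coding genes. It was 0.708 in FBP1, 0.821 in ALDOA and 0.860 in KHK. The 3 genes with the TSS in a peak all belong to the 5, and in that quartile 5.99% of all genes had the TSS in a peak, against 1.58%, 0.779% and 0.399% in the quartiles above. GYS2 and SLC2A2, with the lowest ratios of the 8, had no peak at the TSS, and PCK1, with the highest TSS cover, had the highest ratio of the 5. For a peak anywhere in the TSS window the order differed, with 14.1% of all genes in the lowest quartile and 17.8%, 19.6% and 16.3% in those above. KHK, with the highest ratio of the 8, was next to SLC2A2 in body cover. The part of CpG content in the cover was not tested.

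**Figure D4:**
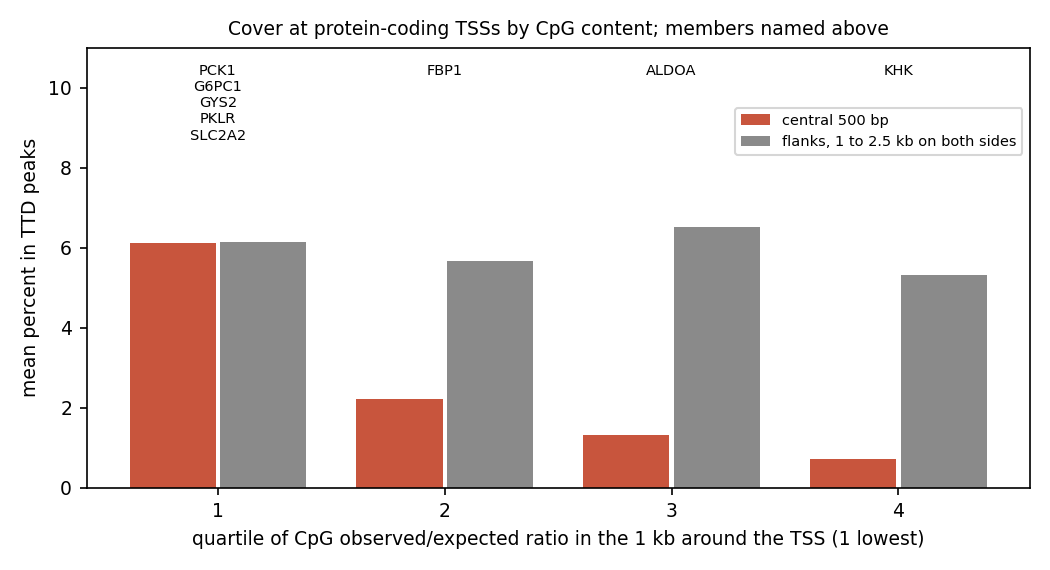
Mean percent of bases in TTD peaks at protein-coding TSSs (y axis) by quartile of the CpG observed/expected ratio (x axis), for the central 500 bp (red) and the flanks (grey), with the 8 genes named in their quartile. The centre fell from 6.11% in the lowest quartile to 0.729% in the highest, and the flanks ranged from 5.32% to 6.52%.

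Apart from KHK, each hepatic gene was paired with isozymes that serve other tissues or compartments, which gave 9 pairs, with SLC2A2 in 3 of them and G6PC1 in 2. Of the 9 partners 2 had a body peak and 1 a TSS-window peak, beside 34.2% and 16.9% of all genes, so that most pairs set a covered gene against one at 0%. Body cover was higher in the hepatic gene in 8 of the 9 pairs, and cover of the TSS window in 6, with 0% in both genes for FBP1 with FBP2 and for GYS2 with GYS1. The exception was PCK2, the mitochondrial phosphoenolpyruvate carboxykinase, with 65.00% of its TSS window, 22.59% of its body and 24.07% of its 100 kb windows covered, all above PCK1. The body and the TSS window had 0% cover in G6PC2 of pancreatic islets, G6PC3, FBP2 and GYS1 of muscle, and PKM. The same held for SLC2A1 and for SLC2A4, the insulin-responsive transporter, while SLC2A3 had 1.794% of its body covered. The FBP1 and FBP2 pair differed in the body by 1 peak only. This peak lay in the FBP1 body but nearer to the TSS of FBP2 (14967 bp) than to that of FBP1 (29458 bp). Within 100 kb SLC2A1 still had 13.02% cover, and PKM with 3.895% was above PKLR.

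The other genes of these pathways were taken from a list of 80 genes in 5 roles without the members. A TSS-window peak was found for 19 of them (23.8%) and a body peak for 33 (41.2%), beside 16.9% and 34.2% of all genes, and the TSS lay in a peak for 2 of the 80, beside 2.19%. With the peak midpoint required in the TSS window the list's share was 12.5%, beside 12.2% of all genes. In glycolysis 3 of 20 genes had a peak in the TSS window and 6 in the body. Among them HKDC1 had 40.02% and the hexokinase HK2 26.80% of the window covered. PFKM, the muscle phosphofructokinase, had 9.281% of its body covered and 0% at the TSS. In gluconeogenesis and glucose 6-phosphate handling 1 of 10 genes, PCK2, had a TSS-window peak and 4 had a body peak, among them the malate dehydrogenase MDH1 at 23.83% of the body and the aspartate aminotransferase GOT1 at 22.31%.

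Glycogen genes had TSS-window peaks in 5 of 15 and body peaks in 6. PPP1R3C, a subunit that targets protein phosphatase 1 to glycogen, had 74.92% of its short body and 26.80% of its TSS window covered. The branching enzyme GBE1 had 25.72% and the primer protein GYG1 22.60% of the TSS window covered. PYGL, the liver glycogen phosphorylase, had 17.53% and UGP2, which makes UDP-glucose, 24.34% of the body covered. In the group of fructose, polyol and hexose transport genes 6 of 13 had a TSS-window peak and 6 a body peak, with 2 of them having only the former and 2 only the latter. SLC2A10 with 89.04% and SLC2A9, a urate transporter, with 63.40% of the TSS window covered were the 2 genes of the list with the TSS inside a peak. AKR1B1, the aldose reductase, followed with 41.58%, and the body cover was 16.65% in GLYCTK, 9.044% in SLC2A9 and 7.356% in SORD, the sorbitol dehydrogenase.

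Of 22 regulators 4 had a peak in the TSS window and 11 in the body. PFKFB1, the liver form of the enzyme that sets fructose 2,6-bisphosphate, had 44.74% of its TSS window covered, GCKR 21.96%, and the transcription factor CEBPA 15.86%. In the body IRS1, the insulin receptor substrate, had 43.44%, the coactivator PPARGC1A 26.22% and GCKR 19.78% cover. The shares of the list lie nearer to those of all genes than the counts of the members do, but the members were picked with results known and the difference was not tested.

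**Figure D5:**
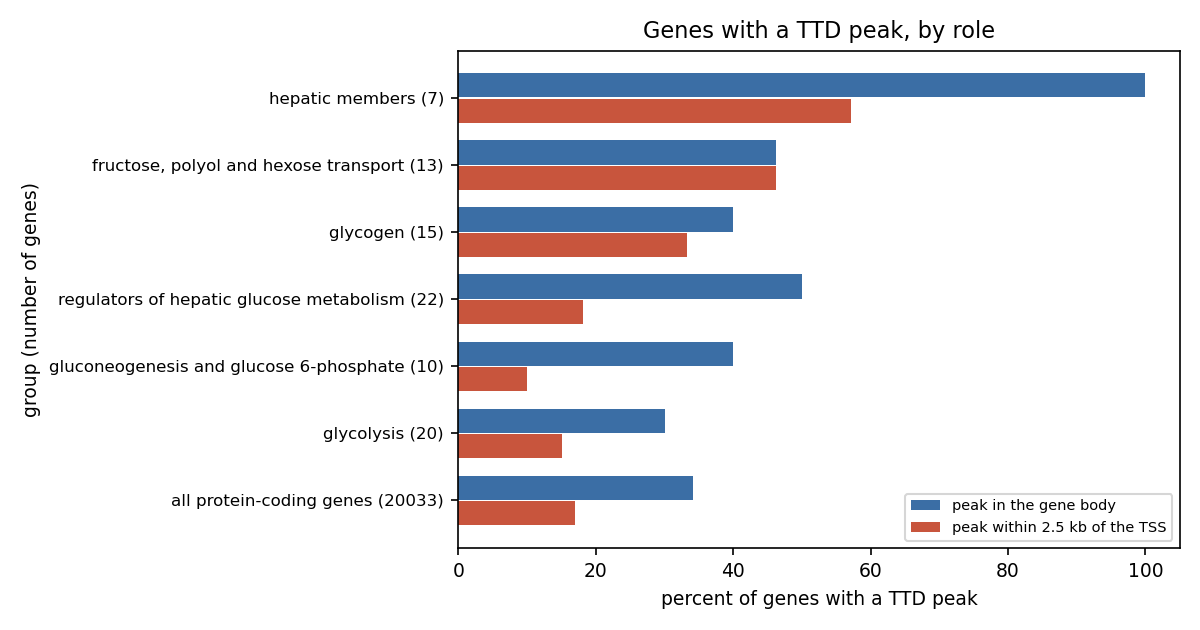
Percent of genes with a TTD peak in the body (blue) or within 2.5 kb of the TSS (red), for the hepatic genes, the 5 roles of the pathway list and all protein-coding genes, with the number of genes in brackets. The hepatic genes stand at 100% and 57.1%, the 5 roles at 30.0 to 50.0% in the body and 10.0 to 46.2% at the TSS, and all genes at 34.2% and 16.9%.

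The pattern of peaks within 10 kb on each side of a TSS was compared between genes by the Jaccard index, the shared covered bases over the bases covered in either gene. The genes most like PCK1 were LY96 (0.943) and COG2 (0.911), those most like G6PC1 were ZNF883 (0.981) and VPS35L (0.977), those most like PKLR were MOGAT2 (0.971) and SLC3A1 (0.950), and those most like SLC2A2 were ELOVL2 (0.821) and AGBL3 (0.785). Many other genes were also alike, since 328 had an index of 0.5 or more with PCK1, 178 with G6PC1, 221 with PKLR and 147 with SLC2A2.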

How the data were processed

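TTD CIDOP, H3K9me2 ChIP and input were each sequenced from 2 biological replicates of HepG2 chromatin. According to the methods and the submitters' processing notes, the authors used Trimmomatic 0.38, FastQC 0.72, HISAT2 2.2.1 with hg38, deepTools 3.3.2 and MACS2 2.1.1. Broad peaks were called on the mean RPKM coverage of both TTD replicates, blacklisted regions were left out and the list was curated by hand. The authors deposited positions and widths in bp on a 10 bp grid, without scores. Because the replicates were averaged before calling, their error cannot be estimated, and manual curation, which also took out large peaks judged to be false, can change which wide peaks remain.

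Cover was computed as the percent of a window lying in peaks, with Python 3.11.15, numpy 2.4.6 and matplotlib 3.10.9, on the protein-coding genes of GENCODE release 44. The canonical TSS, the full gene record and 100 kb on each side were used. No peak exceeded its chromosome (0 of 31569). The interval and motif code was tested on simulated data. The members, lists and motifs were chosen with earlier results of these data known. All members and isozymes are named, as are the 3 genes of each role with the highest cover of the TSS window and of the body, and the 2 genes most like each member with cover at the TSS. Some genes that these rules would name are not reported here. Alternatives were the peak width, the TSS, the window size, the peak assignment and leaving out each member.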

Additional observations from a re-analysis of the deposited data

How the results depend on the processing

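No paired analysis was possible because both TTD replicates were averaged before peaks were called, and for the same reason neither could be left out. Of the 33 values under other settings, apart from leaving out members, 22 were within a factor of 1.5 of the reported value and 11 were not. The former still include 28 pathway genes with a TSS-window peak at 5 kb on each side (35.0%, beside 22.0% of all genes). They also include 23 of the 80 pathway genes with a body peak among peaks at or above the median width (33 reported), beside 20.5% of all genes. A median cover of 9.960% within 50 kb (6.750% within 100 kb) is among them as well. With the peak midpoint, or at least 50% of the peak, required in the window, the hepatic genes with a TSS-window peak fell from 4 to 2, those with a body peak from 7 to 4, and the pathway genes with a TSS-window peak from 19 to 10. These 10 are 12.5% of the list, beside 12.2% of all genes by the midpoint and 12.1% by the 50% rule, so that the shares were nearly equal. Narrowing the TSS window to 1 kb on each side gave 10 pathway genes (12.5%, beside 10.8% of all genes) and a median TSS cover of 0% in the hepatic genes, beside 15.82% reported. That median was 24.20% with 5 kb on each side and 37.17% as the mean over all annotated starts. Keeping only peaks at or above the median width left 12 pathway genes with a TSS-window peak, or 15.0% beside 7.31% of all genes.

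Leaving out each hepatic gene in turn gave 3 to 4 genes with a TSS-window peak, 6 with a body peak and 2 to 3 with the TSS in a peak. These counts follow from the full counts by arithmetic and test nothing. The medians ranged from 7.910% to 32.11% in the TSS window, from 7.043% to 9.586% in the body and from 6.530% to 10.57% within 100 kb. The single pooled list, the missing depth of each library and the lack of peak scores limit every value, and a base outside a peak is not shown to be unbound.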
